A study of Mus musculus with 18 samples.

Results

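The coreceptor genes Cd4, Cd8a and Cd8b1 were described by every SMC1A and CTCF peak within 100 kb of their gene bodies in DP thymocytes, from WT mice and from mice with an induced Satb1 KO. The 100 kb windows of Cd8a and Cd8b1 overlap and were joined into 1 Cd8 locus of 256384 bp, and the Cd4 locus spans 223555 bp. Of 207027 peaks in the 7 lists analysed, 250 lay in these windows, 96 at the Cd4 locus and 154 at the Cd8 locus. Peaks of all lists that overlapped by at least 1 bp were merged into sites, of which 28 lay at the Cd4 locus and 49 at the Cd8 locus, or 77 of 67173 in all.

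DP (double-positive) thymocytes are the stage of T cell development at which both coreceptors are on the surface. CD4 and CD8 bind MHC class II and class I and bring the kinase LCK to the T cell receptor. A thymocyte keeps CD4 or CD8 as it matures, and silencers and enhancers around these genes control their expression. Cd4 is transcribed toward lower coordinates, with its silencer in the gene and an enhancer upstream, on the Lag3 side. Several Cd8 enhancers lie between Cd8b1 and Cd8a, and both genes are transcribed toward higher coordinates. SMC1A is part of the ring of cohesin, which moves along chromatin and forms loops, and CTCF is a DNA-binding protein that stalls cohesin. SATB1 is a chromatin organiser abundant in thymocytes.

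All mice of both genotypes had been given tamoxifen, and the Satb1 deletion was tamoxifen-induced. Thymic DP cells were sorted, and 7 of the 18 samples of the series are analysed here. They are 4 SMC1A libraries, 2 of each genotype, and 3 CTCF libraries, 1 of WT and 2 of KO. CUT&RUN sequences the DNA that a nuclease, tethered by an antibody to a chromatin protein, cuts free. Replicate number equals the batch given in the labels. Neither the promoter that drives the deletion nor the age of the mice was stated in the labels used. Whether replicates are separate animals is not in the labels, so p-values measure only the spread between these samples, and that may be technical. Peak lists measure neither RNA nor the deletion, so they check neither the genotype nor the cell type. List length was 19882 and 20638 for SMC1A in WT, 28151 and 20689 for SMC1A in KO, 38989 for CTCF in WT, and 55750 and 22928 for CTCF in KO. As a proxy for depth, the lowest 1% of local backgrounds was 0.384 to 0.633 reads in the SMC1A lists, lowest in KO replicate 2, and 1.02, 1.82 and 3.28 reads in the CTCF lists, highest in KO replicate 2. Folds and -log10 q values were computed by the authors and serve here to describe a peak within its list. The pile-up, the number of reads stacked at a peak's summit, was solved from the deposited fold and p-value and is not scaled to depth.

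The genes lie on chromosome 6 (mm10): Cd8b1 (gene ID 12526) from 71322788 to 71337492, Cd8a (12525) from 71373427 to 71379171, and Cd4 (12504) from 124864693 to 124888247. Exon structure was not used, so positions are given relative to gene ends. Of the 20 protein-coding genes in the windows, 14 had a promoter window in the RefSeq table of GRCm38.p6, 16 windows in all. Cd8a was among them, and Cd4 and Cd8b1 were not. The upstream 250 bases of 3 of them are printed here, 5′ to 3′ on the strand of the gene. Cd8a is shown because all 4 SMC1A lists have a peak over it, Rmnd5a because it underlies the strongest site of the Cd8 locus, and Lrrc23 because it holds the 1 CTCF core match among the 16 windows. Capitals mark E boxes in the first pair and the CTCF core in the last.
Cd8a (chr6:71373177-71373426, + strand): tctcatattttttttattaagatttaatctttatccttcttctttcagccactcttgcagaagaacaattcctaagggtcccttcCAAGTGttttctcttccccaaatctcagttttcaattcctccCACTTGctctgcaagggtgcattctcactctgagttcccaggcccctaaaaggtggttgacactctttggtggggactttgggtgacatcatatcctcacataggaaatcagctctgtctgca
Rmnd5a (chr6:71440638-71440887, - strand): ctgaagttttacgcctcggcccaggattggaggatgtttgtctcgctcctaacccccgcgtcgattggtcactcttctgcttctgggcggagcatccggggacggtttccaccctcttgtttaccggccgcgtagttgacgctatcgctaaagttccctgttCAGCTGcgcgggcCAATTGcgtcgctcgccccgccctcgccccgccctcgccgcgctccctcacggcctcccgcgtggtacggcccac
Lrrc23 (chr6:124779728-124779977, - strand): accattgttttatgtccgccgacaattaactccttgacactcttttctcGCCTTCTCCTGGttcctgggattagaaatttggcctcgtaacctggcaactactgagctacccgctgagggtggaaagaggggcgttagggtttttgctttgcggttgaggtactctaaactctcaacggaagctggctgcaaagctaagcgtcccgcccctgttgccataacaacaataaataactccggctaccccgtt
The letters searched, on both strands of the full 300 base windows, were CANNTG for the E box, which E proteins bind, TGTGGT for RUNX factors, and CCANNAGNNGGC for the CTCF core. Cd8a held 3 E boxes, the third across the transcription start and so not printed in capitals, and no RUNX or CTCF core match. Of 32851 promoter windows, 72.3% hold an E box, 16.8% the RUNX letters and 2.43% the CTCF core, so E boxes are the common case. A match is a description of letters and not a binding site. SMC1A regions of all 4 lists overlapped 7 of the 16 windows, against 20.6% of all promoter windows, namely those of Krcc1, Cd8a, Rmnd5a, Cdca3, Mlf2 and Cops7a. At the Lrrc23 window, SMC1A was in WT replicate 1 and KO replicate 1, with 10 and 13 reads, and CTCF was in WT and KO replicate 1, with 12 and 45.

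At the Cd8 locus SMC1A peaks were fewest in KO replicate 2, at 12 against 19 to 25 in the other libraries, and at the Cd4 locus the 4 libraries held 9 to 13. SMC1A peaks at the Cd4 locus numbered 12 and 10 for WT, against 13 and 9 for KO, means of 11 ± 1.41 and 11 ± 2.83 (SD, n = 2), so the genotypes overlap. At the Cd8 locus they numbered 25 and 19 in WT and 22 and 12 in KO, means of 22 ± 4.24 and 17 ± 7.07 (SD, n = 2). The difference of -5 peaks did not exceed the replicate spread (two-sided exact permutation test, p = 0.667; the smallest p possible here is 0.333). Within batches the Cd8 difference was -3 and -7 and the Cd4 difference 1 and -1. Per 10000 peaks of the list, the Cd8 locus held 12.6 and 9.21 in WT and 7.82 and 5.80 in KO, and the Cd4 locus 6.04 and 4.85 in WT and 4.62 and 4.35 in KO. On that scale both KO libraries lay below both WT libraries at each locus (exact permutation p = 0.333 for both, the smallest possible). Without KO replicate 2 the difference in peak number was 0 at the Cd8 locus and 2 at the Cd4 locus. CTCF peaks numbered 20 in WT and 22 and 10 in KO at the Cd4 locus, and 32 in WT and 33 and 11 in KO at the Cd8 locus.

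**Figure D1:**
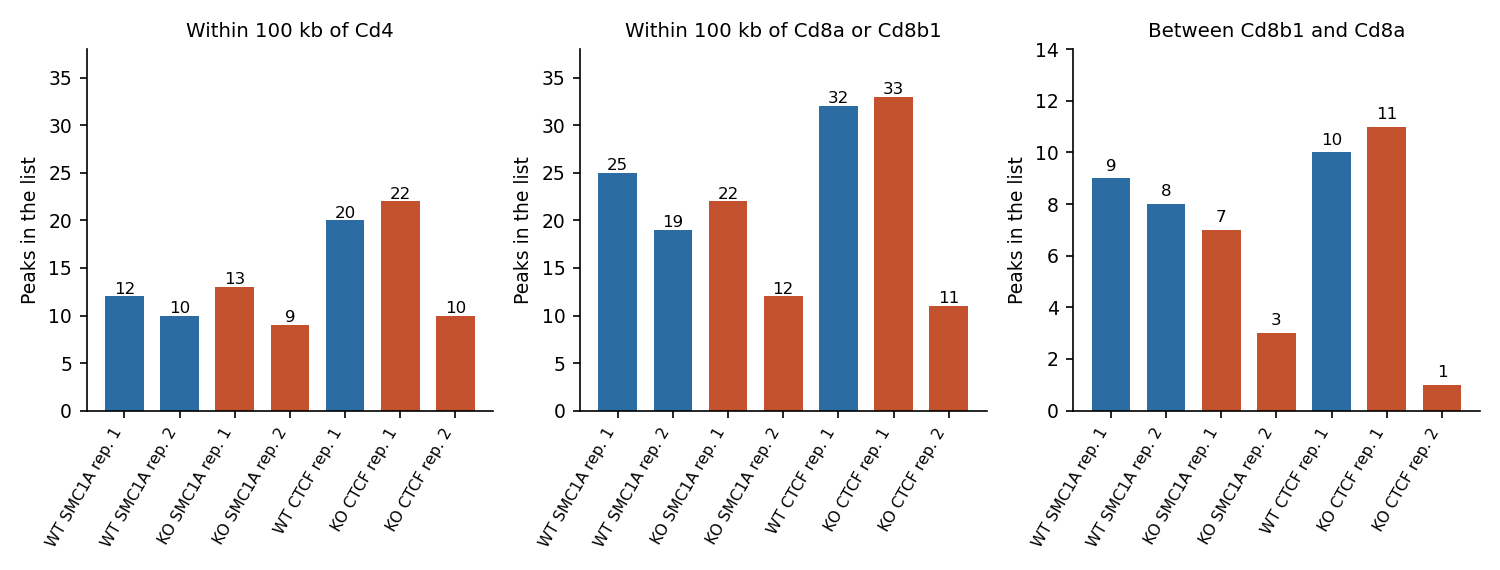
Bars give the number of peaks in each list (vertical axis, from 0) at the Cd4 locus, the Cd8 locus and between Cd8b1 and Cd8a, with WT in blue and KO in red. Between Cd8b1 and Cd8a the SMC1A bars go from 9 and 8 in WT to 7 and 3 in KO, and the CTCF bar of KO replicate 2 stands at 1 peak, against 10 and 11 in the other CTCF lists.

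On the scale of 1 Mb windows, the window that holds Cd8a and Cd8b1 (71000001 to 72000000) had a lower SMC1A peak density in KO. Its WT lists held 39 and 35 SMC1A peaks and its KO lists 40 and 26, for a log2 density difference, KO minus WT, of -0.45 ± 0.14 (SE; limma, Benjamini-Hochberg adjusted p = 0.027 over 1276 windows). The density is scaled to list length, and KO replicate 1, the longest SMC1A list, held more peaks in this window than either WT list. Of all windows, 5.96% passed in either direction and 1.96% were lower in KO. The call was lost when any library was left out (-0.34 to -0.55, adjusted p 0.076 to 0.39), with weaker peaks, under -log10 q 5, left out (-0.35, adjusted p = 0.27), with lists of equal length (-0.38, adjusted p = 0.40), with each library's median set to 0 (-0.53, adjusted p = 0.11), and with no filter on the mean number of peaks (-0.45, adjusted p = 0.082). The window that holds Cd4 (124000001 to 125000000) had 23 and 19 peaks for WT, against 30 and 22 for KO, and a difference of 0.04 ± 0.17 (SE; limma adjusted p = 0.96), and its sign turned under 3 alternatives (-0.05 to -0.13). Whether the difference at the Cd8 window differs from that at the Cd4 window was not tested.

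Merged within the mark, the SMC1A peaks formed 30 regions at the Cd8 locus and 15 at the Cd4 locus. All 4 lists held 11 of the 30 and 8 of the 15, against 35.0% of SMC1A regions in the genome. Regions of 1 list numbered 10 and 5 (genome 35.8%). Of the 10 at the Cd8 locus, 6 were in WT replicate 1, 3 in KO replicate 1 and 1 in WT replicate 2. Lost means present in both WT lists and absent from both KO lists, and gained means the opposite. The Cd8 locus had 1 lost of 18 regions in both WT lists (genome 4.15%) and 1 gained of 12 in both KO lists (genome 13.1%), shares near the background. The Cd4 locus had 0 lost of 8 and 0 gained of 8. These counts turn on single lists. At the Cd8 locus, 2 of 19 regions were lost without WT replicate 1 (genome 15.6%) and 7 of 25 without WT replicate 2 (genome 12.4%). Without KO replicate 1, 7 of 18 were lost (genome 15.5%), and without KO replicate 2, 4 of 22 were gained (genome 31.6%). At the Cd4 locus, 3 of 12 were lost without WT replicate 2 (genome 12.4%) and 2 of 12 gained without KO replicate 2 (genome 31.6%). With lists of equal length, 5 of 18 were lost (genome 7.83%) and 0 of 11 gained (genome 9.93%) at the Cd8 locus. Among the regions of all 4 lists, the pile-up of both KO libraries was below both WT libraries in 1 of 11 at the Cd8 locus (genome 7.24%) and in 0 of 8 at the Cd4 locus, and above both in 0 of 11 and 0 of 8 (genome 13.8%). The median width of regions in all 4 lists was 872 bp at the Cd8 locus and 1119 bp at the Cd4 locus, against 692 bp in the genome.

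**Figure D2:**
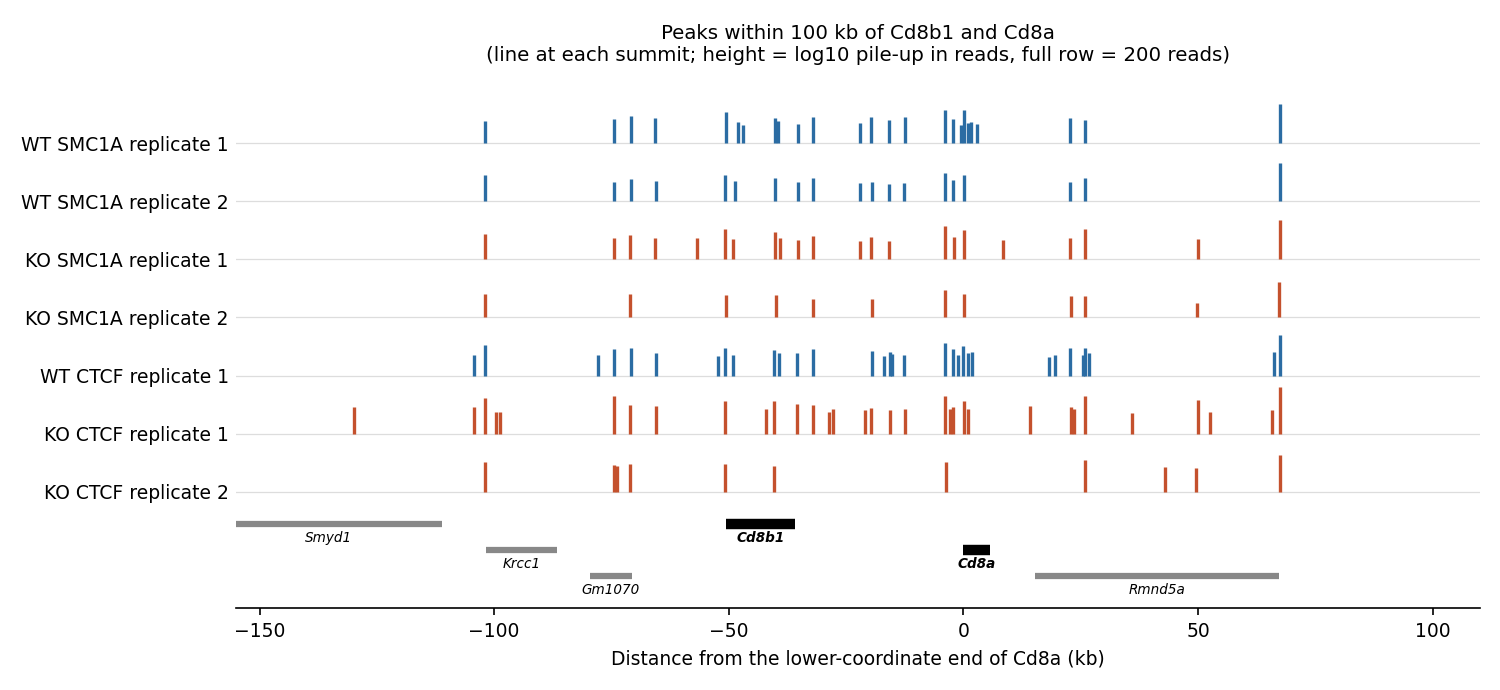
Each line marks a peak summit by its distance from the lower-coordinate end of Cd8a in kb (horizontal axis), with a height that follows the log10 pile-up and a row for each of the 7 lists, WT in blue and KO in red, above the gene bodies. The rows of KO replicate 2 are bare over most of the stretch from Cd8b1 to Cd8a, where the other SMC1A rows have 7 to 9 peaks.

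Cd8a encodes the CD8 alpha chain, which can pair with itself or with the beta chain. Its start lay under an SMC1A region of all 4 lists, 71373201 to 71374109, over the promoter printed above. The summits lay 15 and 172 bp past the start in WT and 30 and 12 bp past it in KO. The pile-up was 46 and 20 reads in WT and 28 and 15 in KO, with folds of 21.5 and 10.3, and 13.1 and 8.61. WT replicate 1 was the highest and KO replicate 2 the lowest, and the genotypes overlap. CTCF had a region there in WT (28 reads, summit 11 bp before the start) and in KO replicate 1 (39 reads, 21 bp past it) and none in KO replicate 2. Inside the gene and just upstream of its start, 4 further SMC1A regions were in WT replicate 1 alone, at 71372659 to 71373021, 71374292 to 71374833, 71375045 to 71375258 and 71376163 to 71376442, with 8 to 11 reads each. They are weak peaks, of -log10 q 2.70 to 5.84.

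Cd8b1 encodes the CD8 beta chain, which pairs with the alpha chain in the form of CD8 that thymocytes carry. Of the 7 SMC1A regions that touch it, 2 were in all 4 lists. The first, 71321690 to 71323354, covered the lower-coordinate end of the gene, its start. Its pile-up was 36 and 19 reads in WT and 32 and 13 in KO, and CTCF stood there with 23 reads in WT and 42 and 24 in KO. The second, 71332756 to 71333649, lay in the gene, with 17 and 15 SMC1A reads in WT and 23 and 13 in KO, and CTCF with 18 reads in WT and 43 and 18 in KO. In both, KO replicate 2 had the lowest SMC1A pile-up and the genotypes overlap. The other 5 regions were in 1 or 2 lists and had 8 to 12 reads.

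The 35934 bp between Cd8b1 and Cd8a, where the Cd8 enhancers are known to lie, held 9 SMC1A regions. WT replicates 1 and 2 had 9 and 8 of them, and KO replicates 1 and 2 had 7 and 3. The 3 that all lists shared were at 71341150 to 71341694, 71353231 to 71354102 and 71369224 to 71370506. The last, 2921 bp from Cd8a, was the strongest, with 46 and 25 reads in WT and 43 and 24 in KO, so the libraries of 1 batch nearly match. At 71353231 the pile-up was 21 and 9 reads in WT and 13 and 8 in KO, which overlap. At 71341150 it was 20 and 15 in WT and 14 and 8 in KO, the site at which both KO libraries lay below both WT libraries. Which of these regions, if any, are the known enhancers was not tested.

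The lost region, 71360606 to 71361105, lies in this stretch, 12322 bp below Cd8a, and had 19 and 8 reads in the WT lists. CTCF had a region over it in WT (11 reads) and in KO replicate 1 (16 reads) and not in KO replicate 2. CTCF of WT and KO replicate 1 likewise covered 62.5% of the lost regions in the genome. A lower -log10 q of under 4 goes with loss in the genome too: of regions in both WT lists below that value, 13.0% were lost, and this region is 1 of 4 such regions at the Cd8 locus.

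Absence from KO replicate 2 alone was more frequent at the Cd8 locus than absence from any other single list. Of 17 SMC1A regions in the other 3 lists, 6 (35.3%) were missing there only, against 11.8% in the genome and 0 of 8 at the Cd4 locus. Absence from KO replicate 1 only, WT replicate 1 only or WT replicate 2 only was found in 0 of 11 regions each (genome 2.00%, 10.0% and 9.85%). Of the 6 regions, 4 lay between the Cd8 genes. The region at 71337699 to 71338195, 207 bp above the end of Cd8b1, had 9 reads in each of the 3 lists. Those at 71351244 to 71351630 had 10, 8 and 8 reads and at 71357384 to 71357809 had 14, 7 and 8 reads, in WT replicate 1, WT replicate 2 and KO replicate 1. The fourth, 71371131 to 71371575, 1852 bp below Cd8a, had 16, 11 and 13 reads. The remaining pair were in Gm1070 at 71298645 to 71299367, with 16, 9 and 12 reads, and below Cd8b1 at 71307534 to 71307959, with 18, 10 and 11 reads.

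These were the weaker regions of the locus. Ordered by the lowest -log10 q of the other 3 lists, 4 of 4 were missing from KO replicate 2 where that value was under 4 (genome 31.8%), 2 of 7 from 4 to 8 (genome 16.1%), 0 of 3 from 8 to 16 (genome 3.42%) and 0 of 3 at 16 or more (genome 0.0921%). KO replicate 2 also had the lowest background of the SMC1A lists, 0.384 reads, and the lowest pile-up in 8 of the 11 regions of all 4 lists at the Cd8 locus and 4 of 8 at the Cd4 locus (genome 50.3%). The part of depth in these absences was not tested. At 71351244 no CTCF list had a region, and over the other 5 regions CTCF was in WT and KO replicate 1. KO replicate 2 had CTCF over 1 of them, that in Gm1070.

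**Figure D3:**
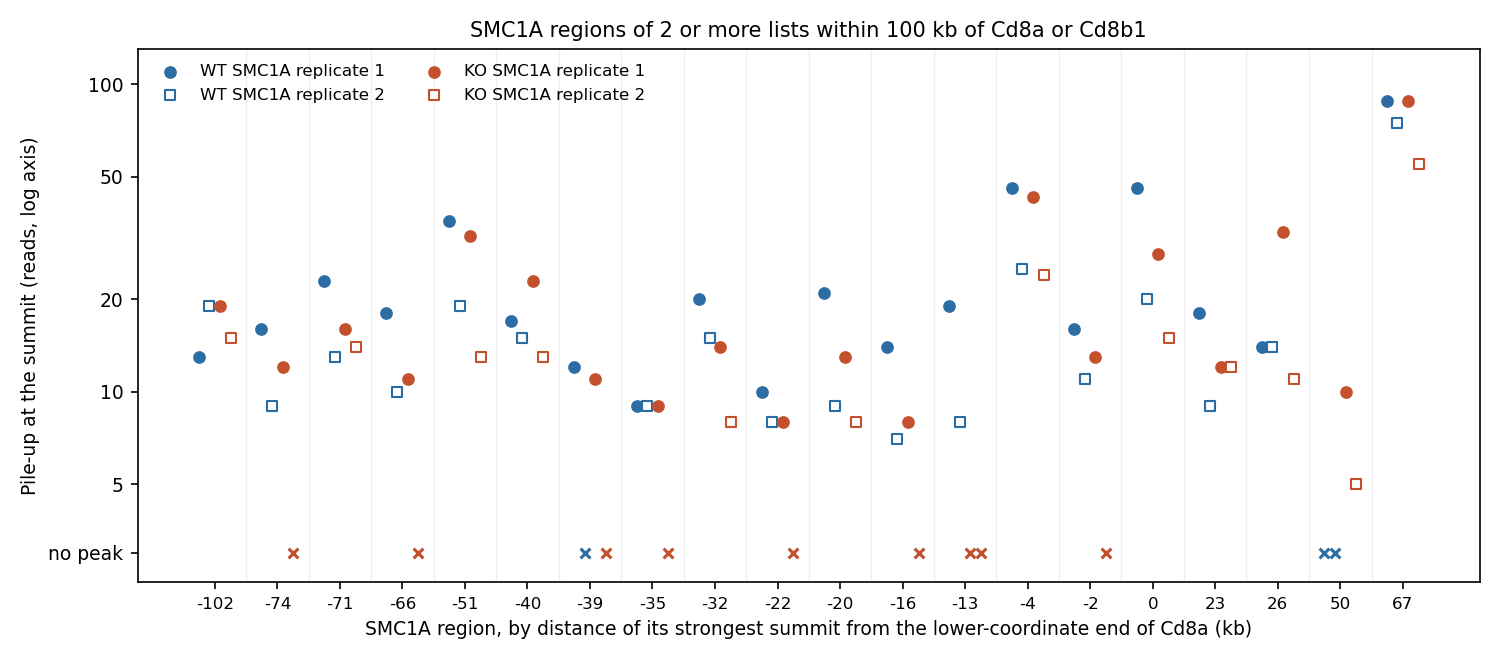
The pile-up at the summit in reads (vertical log axis) is drawn for the 20 SMC1A regions of 2 or more lists at the Cd8 locus, ordered by distance from Cd8a in kb, with circles for replicate 1, squares for replicate 2, WT in blue, KO in red and crosses where a list has no peak. Crosses of KO replicate 2 sit at regions where the lists with a peak have 7 to 19 reads, and the tallest region, at the right, has 55 to 88 reads in all 4 libraries.

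The gained region, 71423064 to 71423451, lies in Rmnd5a, which encodes a subunit of a ubiquitin ligase, 43893 bp above Cd8a. It had 10 and 5 reads in the KO lists, with -log10 q of 6.05 and 2.15. CTCF had a region over it, 71422853 to 71423767, in both KO lists (44 and 15 reads, -log10 q of 37.2 and 2.27) and not in WT. This was the 1 CTCF region of the Cd8 locus in both KO lists only, and such a joint gain was found in 10.1% of the gained SMC1A regions of the genome. Of regions in both KO lists with a lower -log10 q under 4, 31.2% were gained in the genome, and at the Cd8 locus 1 of 2.

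The strongest SMC1A region of the Cd8 locus, 71440402 to 71441773, covered the upstream sequence of Rmnd5a printed above. Its pile-up was 88 and 75 reads in WT and 88 and 55 in KO, and it ranked among the top 0.453% to 0.581% of peaks in each list. CTCF stood there with 104 reads in WT and 343 and 62 in KO. All 7 lists held it, and KO replicate 2 was the lowest for both marks. By best rank in any list, the region at the start of Cd8a came next, at rank 786 in WT replicate 1, and then the region below Cd8a at 71369224, at rank 843.

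Cd4 had almost no peak in its body. The SMC1A region that touches it, 124862873 to 124864880, lies over its lower-coordinate end and the neighbouring Gpr162. Of the SMC1A peaks merged there, only that of WT replicate 1 reached Cd4, whose lower end is at 124864693. In the other SMC1A lists the peaks ended at 124864534 or below. The strongest summits, at 124863088 to 124863132, lay in Gpr162 and not in Cd4. They had 21 and 19 reads in WT and 27 and 20 in KO, which overlap. CTCF had its strongest summits there with 28 reads in WT and 53 in KO replicate 1, at 124863100 and 124863150. KO replicate 2 had 31 reads at 124864294 and a separate peak of 29 reads at 124863393. Of these CTCF peaks only that of KO replicate 1 reached Cd4. Inside the body there was 1 peak more, a CTCF peak of the WT list at 124868030 to 124868229 with 12 reads and a -log10 q of 3.65. From there to 124898220, 29991 bp, 0 of the 7 lists had a peak. That stretch holds the upstream end of Cd4, which lies 9974 bp from the nearest peak. Of protein-coding genes, 52.4% have no peak within 5 kb of the higher-coordinate end. That share pools genes of both strands, so it mixes upstream and downstream ends. For upstream ends alone, as at Cd4, the share was not counted. How often a stretch of this length occurs was not counted.

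**Figure D4:**
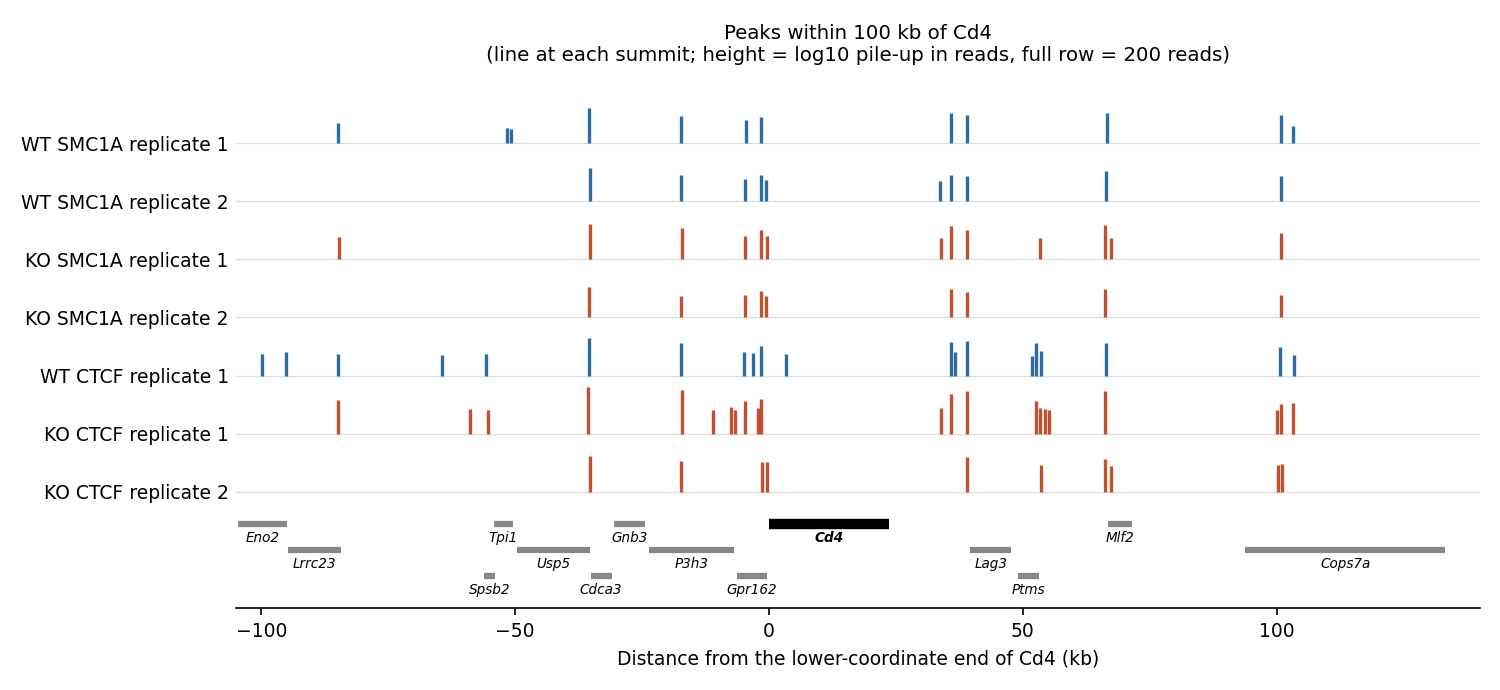
Peak summits of the 7 lists are drawn by distance from the lower-coordinate end of Cd4 in kb (horizontal axis), with heights that follow the log10 pile-up, WT in blue and KO in red, above the gene bodies. A stretch of 29991 bp over the upper part of Cd4 and beyond has no peak in any row. The nearest line below it is in the WT CTCF row alone. The nearest site above it is in WT SMC1A replicate 2 and in KO replicate 1 of both marks. Farther out, the lines beside the lower end of Cd4 and beside Lag3 recur in all 7 rows.

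Between Cd4 and Lag3, the gene of an inhibitory receptor related to CD4, lay 3 SMC1A regions. The region at 124899879 to 124901327, 11632 bp above Cd4, was in all 4 lists with 30 and 21 reads in WT and 46 and 26 in KO. Its local background was high, at 6.86 to 11.3 reads, so its folds were only 3.55 and 2.50 in WT and 3.82 and 3.44 in KO. CTCF was there in WT and KO replicate 1 with 46 and 95 reads. Its local backgrounds were high too, at 17.1 and 34.5 reads, so its folds were only 2.60 and 2.71. The region at 124903340 to 124904437 had 24 and 17 reads in WT and 30 and 18 in KO, and CTCF with 52 in WT and 123 and 50 in KO. Its SMC1A peaks reached the lower end of Lag3, at 124904359, in the KO lists only, and ended at 124904027 and 124904019 in WT. The third, 124898221 to 124898583, was in WT replicate 2 (10 reads) and KO replicate 1 (12 reads) so in 1 list of each genotype. In each of the shared regions KO replicate 1 was the highest and the genotypes overlap.

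The other SMC1A regions of all 4 lists at the Cd4 locus lay at neighbouring genes. The strongest, 124828587 to 124830376 between Usp5 and Cdca3, had 56 and 43 reads in WT and 55 and 32 in KO, and CTCF had 76 in WT and 199 and 58 in KO. Next came the region at the start of Mlf2, 124930561 to 124931593, with 30 and 32 reads in WT and 51 and 27 in KO, and CTCF with 40 in WT and 135 and 44 in KO. The region at the lower end of Cd4 was the third by best rank. P3h3 (124847205 to 124847711) had 22 and 19 reads in WT and 34 and 12 in KO. Gpr162 (124859771 to 124860360) had 14 and 13 reads in both genotypes, and Cops7a (124964819 to 124965958) had 24 and 17 in WT and 21 and 13 in KO. In none of them did the genotypes separate, and KO replicate 1 or WT replicate 1 was the highest except where they tied at Gpr162.

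For CTCF, WT had 1 list, so no test across samples was possible and counts are values only. CTCF formed 44 regions at the Cd8 locus and 26 at the Cd4 locus, of which 8 and 7 were in all 3 lists (genome 27.0%) and 23 and 13 in 1 list (genome 51.6%). Of the regions in the WT list, 11 of 31 at the Cd8 locus and 6 of 19 at the Cd4 locus were in neither KO list, shares of 35.5% and 31.6% against 18.9% in the genome. All had a WT -log10 q under 8. Among WT regions under that value the shares were 11 of 18 and 6 of 11, against 36.6% in the genome. In both KO lists and not in WT were 1 of 9 regions at the Cd8 locus, the one in Rmnd5a, and 0 of 7 at the Cd4 locus (genome 8.29%). Without KO replicate 1, 24 of 32 and 13 of 20 WT regions were missing in KO at the Cd8 and Cd4 locus (genome 53.8%). Without KO replicate 2, 12 of 32 and 7 of 20 regions were in KO only (genome 47.1%).

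The WT regions found in neither KO list were weak, with -log10 q of 1.47 to 5.48 at the Cd8 locus and 2.53 to 7.43 at the Cd4 locus. At the Cd8 genes, 2 touch a gene body: 71324156 to 71324696 in Cd8b1 (11 reads) and 71375085 to 71375434 in Cd8a (14 reads). Another 3 lay between the genes, at 71356367 to 71356741 (9 reads), 71358023 to 71358222 (12 reads) and 71372081 to 71372280 (11 reads), and 1 lay 1542 bp below Cd8b1 at 71321047 to 71321246 (9 reads). The other 5 were in Gm1070 (71295392 to 71295634) and in Rmnd5a (from 71391711, 71392673, 71398807 and 71399885), with 8 to 13 reads. The one from 71398807 ends at 71399006, just below the region from 71399011 to 71399712 that all 3 CTCF lists held. At the Cd4 locus the WT regions in neither KO list were the one in Cd4 itself, 1 in Gpr162 (124861349 to 124861685, 13 reads) and 1 in Ptms (124916295 to 124916704, 9 reads). The others there were 1 near Spsb2 (from 124800189, 10 reads) and 2 in Eno2 (from 124764630 and 124769284, 12 and 15 reads).

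Between Cd8b1 and Cd8a there were 13 CTCF regions. WT and KO replicate 1 each held 10 and KO replicate 2 held 1, the strong region at 71369211 to 71370778, with 39 reads in WT and 77 and 28 in KO. Of the others, 6 were in WT and KO replicate 1, 3 in WT only and 3 in KO replicate 1 only. Inside the gene bodies, CTCF was also at 71374107 to 71374561 in Cd8a, in WT (13 reads) and KO replicate 1 (16 reads), and at 71330980 to 71331400 in Cd8b1, in KO replicate 1 alone (17 reads). After the region upstream of Rmnd5a, the strongest CTCF regions of the Cd8 locus by best rank were that at 71369211 and one in Gm1070, 71298262 to 71299708, with 21 reads in WT and 72 and 22 in KO. Absence from KO replicate 2 only was frequent for CTCF across the genome too: it held for 12 of 20 regions of WT and KO replicate 1 at the Cd8 locus and 6 of 13 at the Cd4 locus, against 40.8%. Absence from KO replicate 1 only was found in 0 of 8 and 0 of 7 (genome 1.22%). KO replicate 2 had the highest CTCF background, 3.28 reads, and the fewest peaks, and the part of either in these absences was not tested.

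Most SMC1A regions of these loci overlapped a CTCF region. A CTCF region overlapped 24 of the 30 SMC1A regions at the Cd8 locus (80.0%, 95% Wilson interval 62.7 to 90.5) and 13 of 15 at the Cd4 locus (86.7%, 62.1 to 96.3), against 89.8% in the genome. The intervals cover counting error only and include the genome's share. For SMC1A regions of 2 or more lists it was 19 of 20 and 10 of 10 (genome 98.3%), and for those of 1 list 5 of 10 and 3 of 5 (genome 74.5%). The 1 exception among the recurrent regions was 71351244 to 71351630 between Cd8b1 and Cd8a, in 3 SMC1A lists and 0 CTCF lists. All 7 lists held 7 of the 49 sites of the Cd8 locus and 6 of the 28 of the Cd4 locus, against 14.9% of sites in the genome. Both marks were at 20 of the 49 and 12 of the 28 sites. CTCF alone made 23 and 14 of the sites, of which 21 and 12 were in 1 list. Of the CTCF regions, 21 of 44 (47.7%) at the Cd8 locus and 12 of 26 (46.2%) at the Cd4 locus overlapped an SMC1A region (genome 45.6%).

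Counted within 20 kb of the gene body, Cd8a had 12 SMC1A regions, Cd8b1 15 and Cd4 6, with a median of 2 over all protein-coding genes. In 7 lists, in the order SMC1A WT, SMC1A KO, CTCF WT, CTCF KO, peaks numbered 11 and 7, 7 and 4, 15, and 12 and 1 at Cd8a. At Cd8b1 they were 12 and 10, 11 and 4, 11, and 11 and 2, and at Cd4 5 and 7, 7 and 6, 8, and 10 and 4. So the highest SMC1A count was in WT replicate 1 at both Cd8 genes and in WT replicate 2 and KO replicate 1 at Cd4. Likeness was measured as the summed absolute difference in peaks per 10000 peaks of the list, over the 7 lists, among the 41 genes of the lists described next. Cd4 was most like Ptpn22 (2.68), Hdac3 (2.81) and Cd5 (2.81). Cd8a was most like Cd3e (5.36), Lcp2 (6.04) and Cd2 (6.35), and Cd8b1 like Cd3e (4.51), Cd3g (5.39) and Runx1 (5.69). At Cd3e, which encodes a signalling chain of the T cell receptor complex, there were 8 and 8 SMC1A peaks for WT, 10 and 3 for KO, and 12, 11 and 3 CTCF peaks.

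The genes that control or work with the coreceptors were taken as fixed lists. Of 25 regulators of Cd4 and Cd8, all with an SMC1A region within 20 kb, 4 had a lost region and 5 a gained one, against 5.84% and 15.9% of the protein-coding genes that have an SMC1A region there. The losses were at Zbtb7b, which encodes the CD4-lineage factor ThPOK (1 of 6 regions), Lef1 (1 of 13), Satb1 (4 of 22) and Elf1 (1 of 14). Satb1 is the targeted gene. The gains were at Runx3, a repressor of Cd4 in CD8 cells (1 of 6), Tox (3 of 7), Tcf7 (1 of 19), Ikzf1 (2 of 19) and Ets1 (2 of 23). Of 16 partners in coreceptor signalling, 2 had a lost region, Cd3e (1 of 14) and Cd247 (1 of 26), and those with a gained one included Cd247, Lcp2 and Ptpn22, with 1 each. Lck, the kinase that both coreceptors carry, had 9 SMC1A regions, 5 of them in all 4 lists, and 0 lost or gained. The lists' genes have more regions than most genes, medians of 7 and 10 against 2, so a lost or gained region among them is found more readily than at the average gene.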

How the data were processed

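Per the labels' protocols, nuclei of sorted DP thymocytes were incubated with SMC1A or CTCF antibody for 2 h and then with a tethered nuclease. Tools in the submitters' processing notes were MACS2, Bowtie2, Trimmomatic 1.24, SAMtools, deepTools and R 4.12, with the build mm10, while the control for calling and all settings are not stated there. The authors' deposited files are MACS2 peak lists, 1 per library and not pooled, with a fold enrichment (ratio), a -log10 p-value and a -log10 q-value per peak. They hold no read counts, so no count model was used. Summit offsets in bp were used too. No q exceeded 0.0498.

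From these, peaks on the standard chromosomes were merged per mark (overlap of at least 1 bp) and over all lists. The pile-up came from fold and p under the caller's Poisson model and was whole, within 0.001, in 2996 to 3000 of 3000 peaks tried per list. For peak numbers the test was a two-sided exact permutation. Densities, log2((peaks + 0.5) per 1000000 peaks), were fitted with limma 3.58.1 (R 4.3.3) with a mean-variance trend over 1 Mb windows with a mean of 5 or more SMC1A peaks, adjusted over all 1276, at a threshold of 0.05. Other steps used Python 3.11.15, numpy 2.4.6, pandas 2.3.3 and scipy 1.17.1, and were tested on simulated data. Gene positions and sequences came from RefSeq tables of GRCm38.p6 (mm10).

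Given one by one or as a count were regions touching a coreceptor gene or its 2 kb flanks, or between Cd8b1 and Cd8a. Described one by one were lost and gained regions, and the 3 strongest per locus and mark by best rank. Regions are named by the gene around the summit, or by the nearest gene end. The genes, lists and rules were chosen with earlier results of these data known. The result for 1 gene of the signalling list is not reported here. Replicate numbers equal the batch in the labels, so the samples can be paired by that number. Deviations of same-numbered SMC1A libraries correlated at 0.0031 over 1276 windows, so the window densities showed no such pairing. The second WT CTCF sample and the H3K27ac, IgG and input samples are not analysed here. The alternatives tried were each library left out, the replicate block, equal list lengths, -log10 q of 5 or more, an overlap of 0.5 of the shorter peak, summits within 200 bp, other distances, other CTCF sets and other window settings.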

Additional observations from a re-analysis of the deposited data

How the results depend on the processing

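Of 136 values recomputed under alternatives, 29 counts or shares moved, 8 densities lost their call and 3 densities changed sign. The difference in SMC1A peak number ran from -2 to 2 at the Cd4 locus, so in both directions, and from -10 to 0 at the Cd8 locus. None of these p-values could reach 0.05, so they say nothing of stability. For the SMC1A density of the window of Cd8a and Cd8b1, adjusted p was above 0.05 with -log10 q of 5 or more (-0.35), equal list lengths (-0.38), medians set to 0 (-0.53), no filter (-0.45) and each library left out (-0.34 to -0.55). For the Cd4 window the sign turned with medians set to 0 (-0.047), 0.5 Mb windows (-0.13) and without WT replicate 2 (-0.12; leaving out a library gave -0.12 to 0.20).

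With -log10 q of 5 or more the Cd8 locus had 0 of 13 SMC1A regions lost (genome 4.68%) and 0 of 9 gained (genome 12.9%). It had 5 of 18 CTCF regions of WT in neither KO list (genome 7.96%) and 0 of 6 in KO only (genome 7.7%). With equal list lengths it had 5 of 18 SMC1A regions lost (genome 7.83%) and 0 of 11 gained (genome 9.93%). CTCF regions of WT only were then 6 of 15 at the Cd8 locus and 3 of 11 at the Cd4 locus (genome 14.1%). Within 20 kb the Cd8 locus had 0 of 8 SMC1A regions gained (genome 13.1%) and 0 of 5 CTCF regions gained (genome 8.29%). The Cd4 locus had 2 of 7 CTCF regions of WT only, or 3 of 12 within 50 kb (genome 18.9%). With summits within 200 bp, 1 of 6 CTCF regions at the Cd4 locus was in both KO lists only (genome 10.2%). Leaving out a library gave 0 to 3 lost and 0 to 2 gained SMC1A regions at Cd4, and 1 to 7 and 1 to 4 at Cd8. The genome shares ran from 5.86% to 15.6% lost and from 21% to 31.6% gained. CTCF regions of WT only numbered 6 to 13 at Cd4 and 11 to 24 at Cd8 (genome 19.6% to 53.8%). Those of KO only numbered 0 to 7 and 2 to 12 (genome 18.6% to 47.1%). The share of SMC1A regions at CTCF at the Cd4 locus was 100% with -log10 q of 5 or more, within 20 kb or within 50 kb, and with CTCF of KO replicate 2 alone it was 53.3%, against 30.0% at the Cd8 locus. The cause of these shifts was not tested.

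Replicate numbers equal the batch, and the replicate block gave -0.45 (adjusted p = 0.033) for the Cd8 window, 0.04 (adjusted p = 0.96) for the Cd4 window, and peak number differences of -5 (exact permutation p = 0.5) and 0 (p = 1). It changed no call. Depth is known only by proxy, so a weak region's absence from a list is not shown to be absence from the cells.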
